A study of Homo sapiens with 6 samples.

Results

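Trefoil and gastric-type secretory genes were followed as a set of 10, namely TFF1, TFF2, TFF3, AGR2, AGR3, CTSE, LYZ, REG4, ANXA10 and PIGR. They were chosen by name, as genes whose proteins are secreted by, or help secretion in, the mucous epithelium of the stomach and related tissues. All 10 were found among the 25442 genes of the table, each as 1 row. The 6 RNA-seq libraries came from YAPC, a human pancreatic ductal adenocarcinoma (PDA) line taken by the study as a classical subtype model. The cells carried the rtTA activator with pRetroX-Tight-Puro, a retroviral vector switched on by doxycycline (Dox), and were either YAPC-iGLI2, holding GLI2, or YAPC-iEV, holding the empty vector. In both lines Dox, at 1 μg/ml, had been present over 6 days when RNA was taken, and each gave 3 libraries. No source used here says whether a line was 1 clone or whether replicates were separate cultures, so p-values measure only the spread between these libraries.

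Trefoil factors are small, disulfide-rich peptides released with mucins onto mucosal surfaces, where they help epithelial cells migrate over a wound. TFF1 is made by surface (pit) cells of the stomach, TFF2 by mucous neck and gland cells, and TFF3 by goblet cells of the intestine and other mucous cells. AGR2 is a protein disulfide isomerase of the endoplasmic reticulum needed for mucin folding, and AGR3 is its close relative. The other genes encode an intracellular aspartic protease (CTSE), lysozyme (LYZ), a C-type lectin (REG4), an annexin of gastric epithelium (ANXA10) and the receptor that carries polymeric immunoglobulins across epithelium (PIGR). TFF1 and AGR2 are also part of the classical signature used by the study, and the comparison asks how forced GLI2 expression affects the genes of that cell state.

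Values are FPKM, which divides the fragments of a gene by its transcript length and by the size of its library. Libraries summed to between 803149 and 1082687 FPKM. The small RNA gene MIR4461 alone held 42.6% to 45.4% of the sum in iEV libraries and 35.7% to 37.7% in iGLI2 libraries. Read numbers are unknown, so neither a counting error nor a detection limit is given. GLI2 lay between 0.344 and 0.466 FPKM in the iEV libraries and between 94.5 and 207 FPKM in the iGLI2 libraries, so each library matched its name. In the fit described below, the log2 fold change of GLI2 was 6.81 with all 6 libraries and 7.17 without iGLI2 replicate 1. It was 6.60 without iGLI2 replicate 2 and 6.65 without replicate 3, so replicate 1 held the least GLI2 of its group. The part of this in the other values of that library was not tested. The ductal identity of the cells was checked on 12 epithelial and ductal markers, of which 9 had a mean of at least 1 FPKM. KRT8 and KRT18 are listed at 0 in every library although epithelial cells use both, so a 0 in this table may be a failed estimate. Both libraries numbered 1 stood apart from the others for some of the genes described here. TFF1, TFF2, TFF3 and LYZ were at least 1.3 times higher in replicate 1 than in the next library of the same group, in both groups, a pattern shared by 366 of the 12493 genes tested (2.93%). The minimum of 1.3 was not fixed before the values of these genes were seen, so that share is a description only. With no minimum, replicate 1 was the highest of its group in both groups for 25.2% of all genes tested and the lowest in both for 33.9%. The fold changes of the 9 genes tested are therefore also given without both libraries numbered 1, an alternative chosen after seeing the data that leaves 2 libraries a group.

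The test was limma's moderated test on log2(FPKM + 1), run on 12493 genes whose mean reached 1 FPKM, with Benjamini-Hochberg adjustment over all of them and a threshold of 0.05. Of the 10 genes, 9 entered the test, and REG4 was too low. ANXA10 was the 1 gene that passed, as higher in iGLI2 cells, where 21.9% of all genes tested passed, 10.1% as higher and 11.8% as lower. ANXA10 and PIGR entered the test through 1 group only, since the other group had a mean under 1 FPKM. The median log2 fold change of the 9 genes was 0.04, against -0.01 over all genes tested. Groups did not overlap for TFF3 and ANXA10, higher in iGLI2 cells, and for PIGR, lower in iGLI2 cells, 3 of 9 genes against 42% of all genes tested (19.2% higher and 22.8% lower). Without both libraries numbered 1, 6 of the 9 passed, TFF3 and ANXA10 as higher and TFF1, TFF2, LYZ and PIGR as lower, where 43.8% of all genes tested passed in the same fit (21.3% as higher and 22.5% as lower). The fold changes below are on the log2(FPKM + 1) scale, which understates the change of genes with low values.

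**Figure D1:**
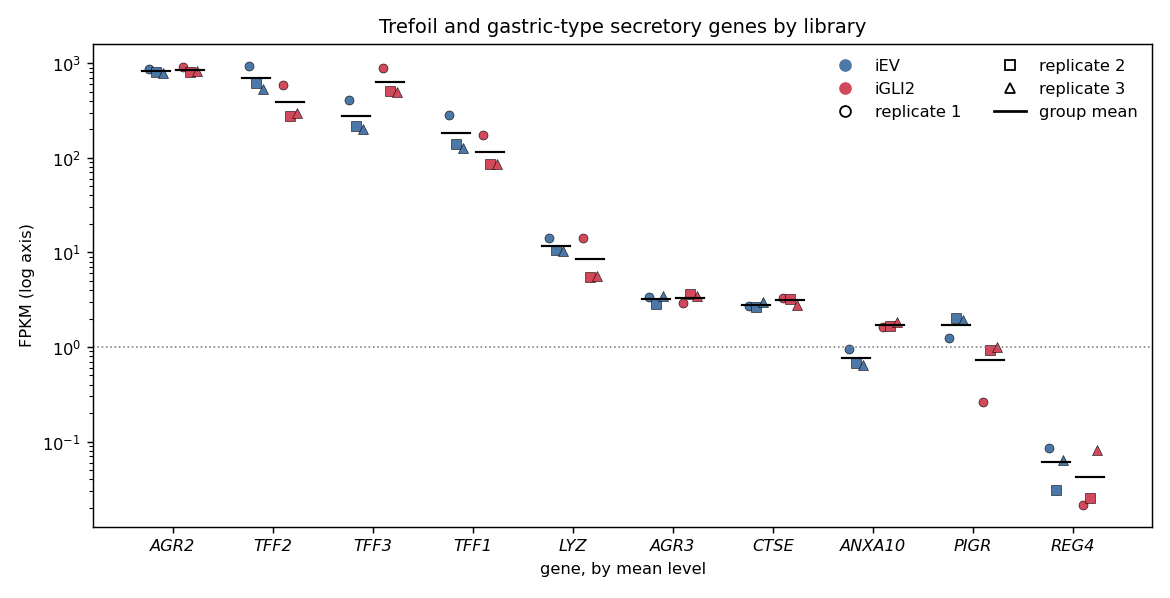
FPKM (log axis) of the 10 genes in each library, ordered by mean level, with iEV in blue and iGLI2 in red, a symbol per replicate number, a bar at the group mean and a dotted line at 1 FPKM. AGR2 and the 3 trefoil genes sit above 85 FPKM in every library, and the circles of replicate 1 lie above the other symbols for all 3 trefoil genes and LYZ in both groups.

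Levels spanned a wide range in these cells. AGR2 was the most abundant of the 10, at a mean of 837 FPKM and rank 94 of the genes tested, followed by TFF2 (rank 146), TFF3 (rank 169) and TFF1 (rank 566). LYZ, at a mean of 10.1 FPKM, lay above 46.5% of the genes tested. AGR3 and CTSE, at 3.27 and 2.94 FPKM, were above 18.3% and 16.0% of them. ANXA10 and PIGR followed at 1.24 and 1.23 FPKM, and REG4 was last at 0.0514 FPKM. By the mean of each group, the order of the 4 abundant genes was AGR2, TFF2, TFF3, TFF1 in iEV cells and AGR2, TFF3, TFF2, TFF1 in iGLI2 cells. In iEV replicate 1 TFF2 lay above AGR2. Neighbours in these orders whose group means differed by less than the larger of their SDs were AGR2 with TFF2 and TFF3 with TFF1 in iEV cells, and AGR2 with TFF3 in iGLI2 cells. Within libraries, however, TFF3 lay above TFF1 in each iEV library and AGR2 above TFF3 in each iGLI2 library. At the low end, PIGR lay above ANXA10 in each iEV library and below it in each iGLI2 library.

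The trefoil genes lie side by side on chromosome 21 of hg19 and are all on the minus strand of the annotation. TFF3 runs from 43731777 to 43735706, TFF2 from 43766467 to 43771208 and TFF1 from 43782391 to 43786644, so that 30760 bases separate TFF3 from TFF2 and 11182 separate TFF2 from TFF1. The table gave them different directions. TFF3 was higher and TFF2 and TFF1 were lower in iGLI2 than in iEV cells, but none of the 3 passed the threshold in the fit with all 6 libraries and condition as the only term.

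In iEV cells TFF3 stood at 406, 219 and 202 FPKM for replicates 1 to 3, and in iGLI2 cells at 883, 506 and 497. Every iGLI2 library was above every iEV library, and replicate 1 was the highest of each group. The means were 276 ± 113 and 629 ± 220 FPKM (n = 3 each, SD), a ratio of 2.28, and the log2 fold change of 1.21 (standard error 0.35) missed the threshold in limma (adjusted p = 0.0556). Without both libraries numbered 1 it was 1.25 (standard error 0.051, limma adjusted p = 0.00110), and without iEV replicate 1 alone it was 1.52 (limma adjusted p = 0.0299), in a fit where 2 of the 9 genes and 17.5% of all genes tested passed. With small RNA genes left out and the libraries rescaled it was 1.28 (limma adjusted p = 0.0375). With any other single library left out, TFF3 did not pass (limma adjusted p from 0.0946 to 0.175). Nor did it with upper quartile scaling (limma adjusted p = 0.0571) or quantile normalization (limma adjusted p = 0.0530). In a bulk library, a different number of cells that make a transcript and a different amount of it per cell cannot be told apart.

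The iEV libraries 1 to 3 held 937, 616 and 536 FPKM of TFF2, against 590.0, 279 and 299 in iGLI2 libraries 1 to 3. The groups overlapped through iGLI2 replicate 1, which lay above iEV replicate 3. Group means were 696 ± 212 and 389 ± 174 FPKM (n = 3 each, SD). The log2 fold change, -0.88 with a standard error of 0.35, did not pass (adjusted p = 0.129 in limma). It was -0.99 without both libraries numbered 1 (standard error 0.087, limma adjusted p = 0.00444). Leaving out iGLI2 replicate 1 alone also brought it past the threshold (-1.22, limma adjusted p = 0.0241), in a fit where 3 of the 9 genes and 30% of all genes tested passed.

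For TFF1, replicates 1 to 3 read 281, 141 and 126 FPKM without the transgene and 176, 85.1 and 87.0 FPKM with it. Again iGLI2 replicate 1 reached into the iEV range, above iEV replicates 2 and 3. Group means were 183 ± 85.4 and 116 ± 51.7 FPKM (n = 3 each, SD). The log2 fold change, -0.64 with a standard error of 0.41, did not pass (adjusted p = 0.321 in limma). Without both libraries numbered 1 it was -0.62 (standard error 0.067, limma adjusted p = 0.00673). Without iEV replicate 1 alone it was -0.28 (limma adjusted p = 0.614).

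Within a library, the 3 genes can be set against each other, and there the replicates lay close together. The ratio of TFF3 to TFF2 was 0.434, 0.355 and 0.377 in iEV replicates 1, 2 and 3, and 1.50, 1.81 and 1.66 in iGLI2 replicates 1, 2 and 3. TFF2 was thus the most abundant trefoil transcript in each iEV library and TFF3 in each iGLI2 library. The mean ratio was 0.388 ± 0.0407 in iEV and 1.66 ± 0.158 in iGLI2 cells (SD, n = 3 each), 4.27-fold apart. The ratio of TFF3 to TFF1 went from 1.54 ± 0.0815 to 5.56 ± 0.478 (SD, n = 3 each), also with no overlap. For both, a two-sided exact permutation test gave p = 0.1 (0.15 adjusted over the 3 ratios), and 0.1 is the smallest p that 3 libraries against 3 allow. The ratio of TFF1 to TFF2 was 0.254 ± 0.0393 and 0.298 ± 0.00683 (SD, n = 3 each), and its groups overlapped (exact permutation p = 0.3, adjusted p = 0.3). A ratio shows unequal change and not which of its genes changed.

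The summed level of the 3 genes came to 1155 ± 410 FPKM without and 1134 ± 446 FPKM with the transgene (SD, n = 3 each), a difference well within the spread between replicates. Of this sum, TFF3 held 23.6% ± 1.32 in iEV and 56.0% ± 2.31 in iGLI2 cells, TFF2 held 61.0% ± 2.88 and 33.9% ± 1.86, and TFF1 held 15.4% ± 1.61 and 10.1% ± 0.485 (SD, n = 3 each). Each of these shares was separated between the groups. The 3 shares make up the whole sum, so a higher share of any of them lowers the others. They are therefore not 3 separate results. Outside the cluster, TMPRSS3, a membrane serine protease gene 5352 bases beyond TFF1, rose from 43.7 ± 1.23 to 65.0 ± 2.06 FPKM (n = 3 each, SD; log2 fold change 0.56, limma adjusted p = 0.00189). ABCG1, a sterol exporter gene 14423 bases before TFF3, had 45.6 ± 11.1 and 39.6 ± 9.07 FPKM (n = 3 each, SD; limma adjusted p = 0.612).

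**Figure D2:**
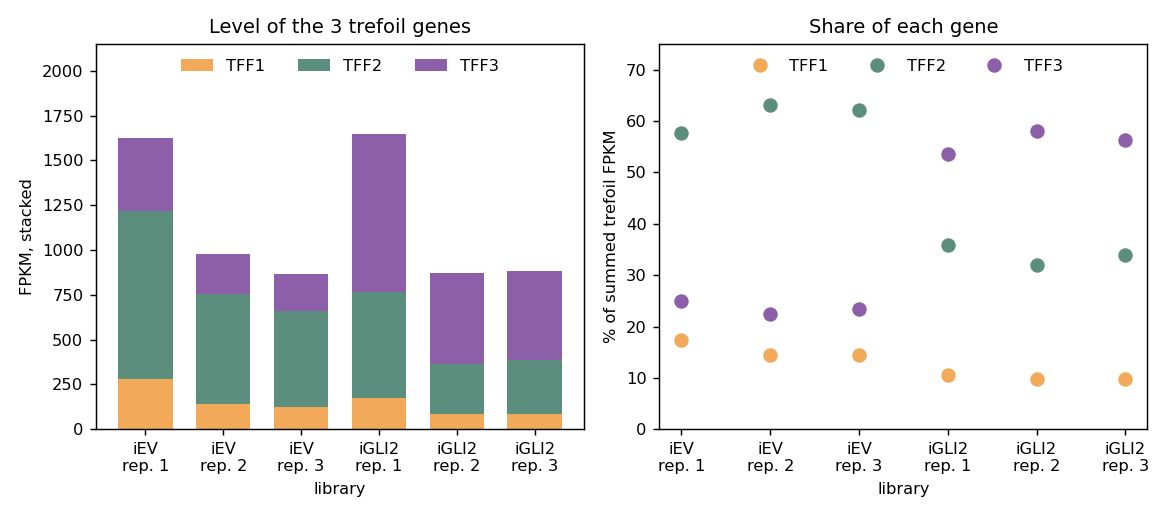
Left, stacked FPKM of TFF1, TFF2 and TFF3 in each library. Right, the share of each gene in that sum, in percent, as a point per library. The stacks are tallest for replicate 1 of each group, at 1624 FPKM in iEV and 1649 FPKM in iGLI2, while the TFF3 share lies between 22.4% and 25.0% in iEV and between 53.6% and 58.1% in iGLI2 libraries.

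AGR2 lies on chromosome 7 of hg19 from 16832264 to 16844738 and AGR3 from 16899030 to 16921613, 54291 bases further on, both on the minus strand. Per replicate, from 1 to 3, AGR2 came to 875, 812 and 791 FPKM in iEV and to 905, 802 and 835 in iGLI2 cells. The groups overlapped, and the coefficients of variation, 5.29% in iEV and 6.21% in iGLI2 cells, were the smallest of the 10 genes. The log2 fold change was 0.04 with a 95% interval from -0.15 to 0.22 (limma adjusted p = 0.767), and 0.03 without both libraries numbered 1 (limma adjusted p = 0.600). In iEV cells AGR3 stood at 3.36, 2.82 and 3.48 FPKM for replicates 1 to 3, and in iGLI2 cells at 2.91, 3.61 and 3.45, with overlapping groups. Its log2 fold change was 0.04 with a 95% interval from -0.21 to 0.28 (limma adjusted p = 0.831), and 0.13 without both libraries numbered 1 (limma adjusted p = 0.330). Changes within these intervals cannot be told from none in either gene. The processed pseudogene RAD17P1 lies inside AGR3 in the annotation, on the same strand.

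The 250 bases before the AGR2 start site are shown because AGR2 was the most abundant of the genes and its promoter holds the letters of the core of the GLI site. Sequence and start sites are those of RefSeq for GRCh38.p14, in which this stretch is chr7:16805000-16805249 on the minus strand. Of the 10 genes, 6 had a promoter in the table used, and TFF1, TFF2, TFF3 and LYZ had none. Capitals mark, from left to right, the GATA site AGATAA and the GLI core CCACCCA, which is read on the opposite strand.

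AGR2: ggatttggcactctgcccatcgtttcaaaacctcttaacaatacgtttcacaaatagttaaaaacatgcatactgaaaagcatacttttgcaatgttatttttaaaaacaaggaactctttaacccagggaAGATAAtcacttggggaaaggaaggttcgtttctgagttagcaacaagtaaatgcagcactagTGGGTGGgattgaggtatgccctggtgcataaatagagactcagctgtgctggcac

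The window searched ran from 250 bases before to 50 after the start, on both strands. The GLI core was found in AGR2 alone of the 6 genes, 56 to 50 bases before the start, and in 9.19% of all 35116 promoters of the same length. AGATAA was found in AGR2 and REG4, and in 10.3% of all promoters. The FOXA motif TGTTTAC was found in none of the 6 and in 3.42% of all promoters. The nuclear receptor motif AGGTCA, as bound by the estrogen receptor, was found in AGR3 and PIGR (13.8% of all promoters), and TATAAA in AGR3, ANXA10 and REG4 (11.5%). No match overlapped another motif. A match is a description of the letters and says nothing about binding.

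Other protein disulfide isomerases were tested from a list of 20, of which 14 entered the test. DNAJC10, a reductase of the endoplasmic reticulum, was the only one that passed, rising from 31.7 ± 0.406 to 44.0 ± 1.87 FPKM (n = 3 each, SD; log2 fold change 0.46, limma adjusted p = 0.00367), and none was lower. The median log2 fold change of the 14 was 0.11. Over all genes tested, 10.1% passed as higher and 11.8% as lower. P4HB, the most studied isomerase of the family, did not pass, at 216 and 212 FPKM (limma adjusted p = 0.837).

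LYZ, on chromosome 12 of hg19 from 69742134 to 69748013, read 14.2, 10.7 and 10.3 FPKM in replicates 1 to 3 of the iEV cells. Replicates 1 to 3 of the iGLI2 cells read 14.2, 5.45 and 5.70 FPKM. Replicate 1 was level between the groups, whereas iGLI2 replicates 2 and 3 lay below all iEV libraries. The log2 fold change of -0.54 had a standard error of 0.35 and did not pass (adjusted p = 0.331 in limma). Without iGLI2 replicate 1 it was -0.94 (limma adjusted p = 0.0109), and without both libraries numbered 1 it was -0.81 (limma adjusted p = 0.00201). An antisense long noncoding RNA overlaps the end of LYZ in the annotation, and the counting is not stated to use strand, so reads of the pair cannot be told apart. The 8 other genes of the lysozyme and α-lactalbumin family found in the table were all below the filter, and 5 of them are listed at 0 in every library.

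CTSE, on chromosome 1 from 206317459 to 206332104, was measured at 2.70, 2.63 and 2.97 FPKM in replicates 1 to 3 of the iEV cells. In iGLI2 replicates 1 to 3 it was at 3.32, 3.25 and 2.78 FPKM, and iGLI2 replicate 3 lay within the iEV range. The log2 fold change was 0.13 with a 95% interval from -0.08 to 0.33 (limma adjusted p = 0.347), and 0.08 without both libraries numbered 1 (limma adjusted p = 0.523). Among 9 related aspartic proteases, 3 entered the test, with a median log2 fold change of -0.07. BACE2, a membrane-bound aspartic protease, rose from 16.3 ± 0.708 to 33.2 ± 4.61 FPKM (n = 3 each, SD; log2 fold change 0.98, limma adjusted p = 0.00240). CTSD, the lysosomal cathepsin D, had 902 and 834 FPKM and did not pass the test. PGC, a pepsinogen of the stomach, was at or below 0.110 FPKM in every library.

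REG4, on chromosome 1 from 120336641 to 120354203, lay near 0. The iEV libraries 1 to 3 held 0.0855, 0.0310 and 0.0642 FPKM of REG4, against 0.0215, 0.0251 and 0.0812 in iGLI2 libraries 1 to 3. The groups overlapped, no test was run at this level and no fold is read from it. The 5 other REG genes are listed at 0 in every library.

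ANXA10 lies on chromosome 4 of hg19 from 169013688 to 169108893, on the plus strand. For ANXA10, replicates 1 to 3 read 0.957, 0.673 and 0.640 FPKM without the transgene and 1.64, 1.68 and 1.85 FPKM with it. Every iGLI2 library lay above every iEV library, and replicate 1 was not set apart in iGLI2 cells. The means of 0.757 ± 0.174 and 1.72 ± 0.108 FPKM (n = 3 each, SD) gave a ratio of 2.28, and the log2 fold change of 0.64, with a standard error of 0.11, passed (adjusted p = 0.0109 in limma). It was 0.74 without both libraries numbered 1 (limma adjusted p = 0.00322). The level stayed low in both groups, and the call was kept with each library left out in turn (limma adjusted p from 0.00756 to 0.0441). With all genes tested and no filter, the adjusted p in limma was 0.00850. A long noncoding RNA on the opposite strand overlaps each end of ANXA10 in the annotation. The promoter is shown because this was the gene that passed with all 6 libraries and condition as the only term. The 250 bases before the start, chr4:168092287-168092536 of GRCh38.p14 on the plus strand, hold TATAAA (in capitals) 29 to 24 bases before the start and none of the other motifs.

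ANXA10: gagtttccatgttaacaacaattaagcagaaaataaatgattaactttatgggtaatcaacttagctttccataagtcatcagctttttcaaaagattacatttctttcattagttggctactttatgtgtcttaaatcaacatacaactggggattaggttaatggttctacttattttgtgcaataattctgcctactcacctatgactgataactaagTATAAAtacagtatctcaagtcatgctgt

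Annexins bind membranes in a calcium-dependent way, and 9 of 13 others listed entered the test. Among them 3 passed as higher in iGLI2 cells and 2 as lower, beside 10.1% and 11.8% of all genes tested. The median log2 fold change of the 9 was 0.10. ANXA1, an anti-inflammatory annexin, rose from 454 ± 24.1 to 647 ± 50.4 FPKM (log2 fold change 0.51, limma adjusted p = 0.0101). ANXA9 rose from 1.77 ± 0.140 to 3.57 ± 0.853 FPKM (log2 fold change 0.71, limma adjusted p = 0.0241). ANXA2, a partner of S100A10 at the plasma membrane, fell from 740.0 ± 10.5 to 565 ± 0.932 FPKM (log2 fold change -0.39, limma adjusted p = 0.00509). ANXA3 fell from 215 ± 27.5 to 131 ± 0.903 FPKM (log2 fold change -0.71, limma adjusted p = 0.00612; SD, n = 3 for each of these means). These 4 genes are far from equal in level, and ANXA10 was the least abundant annexin named here.

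PIGR lies on chromosome 1 of hg19 from 207101867 to 207119811, on the minus strand. Per replicate, from 1 to 3, PIGR came to 1.24, 2.02 and 1.92 FPKM in iEV and to 0.261, 0.925 and 1.01 in iGLI2 cells. Each iGLI2 library was below each iEV library, and replicate 1 was the lowest of both groups, the opposite of the trefoil genes. The means were 1.72 ± 0.420 and 0.731 ± 0.409 FPKM (n = 3 each, SD), 2.36-fold apart, and the log2 fold change of -0.67 (standard error 0.22) missed the threshold in limma (adjusted p = 0.0825). Without both libraries numbered 1 it was -0.59 (standard error 0.052, limma adjusted p = 0.00446). The 250 bases before its start, chr1:206946467-206946716 of GRCh38.p14 on the minus strand, are shown because PIGR had the largest fold between group means of the 4 tested genes that were lower in iGLI2 cells. They hold AGGTCA (in capitals) 143 to 138 bases before the start.

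PIGR: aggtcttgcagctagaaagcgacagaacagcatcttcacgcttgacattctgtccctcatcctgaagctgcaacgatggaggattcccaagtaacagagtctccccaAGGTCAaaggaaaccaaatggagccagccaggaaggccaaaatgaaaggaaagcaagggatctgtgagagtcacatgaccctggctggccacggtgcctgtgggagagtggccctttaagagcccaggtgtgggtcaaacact

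PIGR is induced in mucosa by interferon γ, interleukins and NF-κB signaling, and 19 genes of receptors and factors upstream of it were listed and all tested. In iGLI2 cells 6 of them were lower and 1 was higher, beside 11.8% and 10.1% of all genes tested. Their median log2 fold change was -0.18. IFNGR1, a chain of the interferon γ receptor, fell from 53.4 ± 11.2 to 22.4 ± 1.81 FPKM (log2 fold change -1.20, limma adjusted p = 0.00546). IL4R, the receptor for interleukin 4, fell from 6.72 ± 0.575 to 4.59 ± 0.373 FPKM (log2 fold change -0.46, limma adjusted p = 0.0142; SD, n = 3 for each of these means). The part of these genes in the PIGR values was not tested.

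**Figure D3:**
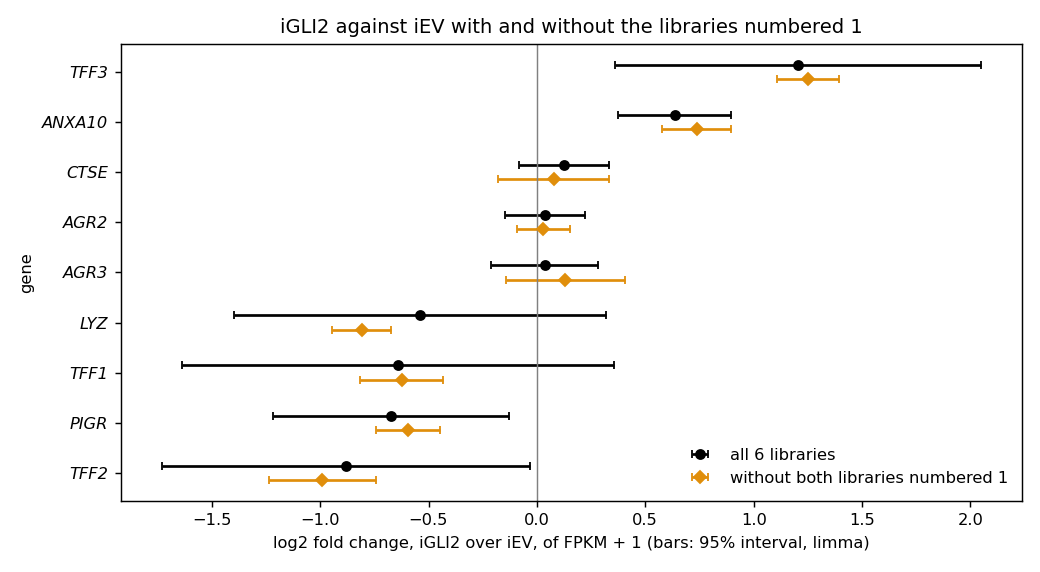
log2 fold change, iGLI2 over iEV, on the log2(FPKM + 1) scale for the 9 genes tested, with 95% intervals from limma, from all 6 libraries (black circles) and without both libraries numbered 1 (orange diamonds). The estimate for TFF3 moved from 1.21 to 1.25 and that for LYZ from -0.54 to -0.81, and the intervals of TFF1, TFF2, TFF3, LYZ and PIGR became narrower.

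Genes of gastric pit and mucous neck cells moved in both directions. Of 22 listed, 16 entered the test, and their median log2 fold change was 0.10. As higher in iGLI2 cells 5 passed and as lower 5, where 10.1% and 11.8% of all genes tested passed in these directions. CLDN18, among those higher, entered through iGLI2 cells only (1.36 against 0.805 FPKM). VSIG2 was lower in each iGLI2 library (0.436 to 0.628 FPKM) than in any iEV library (at least 0.717 FPKM), but the filter left it out. MUC5AC, the gel-forming mucin packed with TFF1 in pit cells, rose from 3.54 ± 0.867 to 44.0 ± 20.2 FPKM (n = 3 each, SD; log2 fold change 3.20, limma adjusted p = 0.00387). CEACAM6, a cell adhesion protein, rose from 4.74 ± 1.15 to 17.2 ± 2.04 FPKM (n = 3 each, SD; log2 fold change 1.68, limma adjusted p = 0.00156). In the other direction, MUC1, a membrane mucin, fell from 21.7 ± 2.08 to 3.61 ± 0.283 FPKM (n = 3 each, SD; log2 fold change -2.29, limma adjusted p = 1.31e-04). FUT2, the fucosyltransferase of the secretor blood group, fell from 6.21 ± 0.474 to 1.61 ± 0.217 FPKM (n = 3 each, SD; log2 fold change -1.46, limma adjusted p = 4.84e-04). MUC6, the mucin of gland cells that is packed with TFF2, was at or below 0.0455 FPKM in every library, and the gastrokines GKN1 and GKN2 are listed at 0.

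Of 19 listed partners and proposed receptors of trefoil factors and AGR2, 7 entered the test, 3 were higher (MUC5AC, CXCR4 and EPCAM) and none was lower, with a median log2 fold change of 0.07. Shares over all genes tested were 10.1% higher and 11.8% lower, here and for the transcription factors that follow. CXCR4, a chemokine receptor, rose from 0.0611 ± 0.0502 to 5.53 ± 0.636 FPKM (n = 3 each, SD; log2 fold change 2.62, limma adjusted p = 1.31e-04). Among transcription factors of endoderm and secretory epithelium, 16 of 23 entered the test, 3 passed in each direction, and the median log2 fold change was -0.02. SOX2, a factor of the foregut and stomach, rose from 12.6 ± 1.75 to 62.7 ± 17.0 FPKM (n = 3 each, SD; log2 fold change 2.20, limma adjusted p = 0.00196). FOXA1, a pioneer factor of endoderm, rose from 0.360 ± 0.0721 to 1.93 ± 0.158 FPKM (n = 3 each, SD; log2 fold change 1.11, limma adjusted p = 0.00124). GATA6, a factor of the classical subtype, fell from 4.95 ± 0.649 to 0.830 ± 0.137 FPKM (n = 3 each, SD; log2 fold change -1.70, limma adjusted p = 5.04e-04). CXCR4, FOXA1 and GATA6 entered the test through 1 group, the other having a mean under 1 FPKM. The filter left out SPDEF, a listed factor higher in each iGLI2 library (0.830 to 1.44 FPKM) than in any iEV library (at most 0.262 FPKM). It also left out HNF4A, which was lower in each iGLI2 library but at or below 0.0605 FPKM throughout. ELF3, an ETS factor of epithelium, fell from 85.0 ± 0.0798 to 59.4 ± 3.70 FPKM (n = 3 each, SD; log2 fold change -0.51, limma adjusted p = 0.00391).

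Of 22 mucosal defence and secreted epithelial proteins, 9 entered the test, 5 were lower in iGLI2 cells and none was higher, with a median log2 fold change of -0.55. Over all genes tested, 11.8% passed as lower and 10.1% as higher, the shares also for the classical signature below. DEFB1, among those lower, entered through iEV cells only (2.25 against 0.192 FPKM). PLA2G2A was higher in each iGLI2 library (0.477 to 1.33 FPKM) than in any iEV library (at most 0.127 FPKM), but the filter left it out. TCN1, a vitamin B12 binding protein of saliva and gastric juice, fell from 74.5 ± 5.71 to 31.2 ± 0.373 FPKM (n = 3 each, SD; log2 fold change -1.23, limma adjusted p = 3.51e-04). SLPI, a secreted protease inhibitor, fell from 39.7 ± 1.28 to 8.86 ± 2.50 FPKM (n = 3 each, SD; log2 fold change -2.08, limma adjusted p = 0.00147). The classical signature, which the study put together from published subtype lists and which includes TFF1 and AGR2, had 17 of 19 genes in the test, with 5 higher and 4 lower and a median log2 fold change of 0.04. CEACAM5 rose (log2 fold change 1.44, limma adjusted p = 0.00167) with CEACAM6, whereas FOXQ1 (-0.72, limma adjusted p = 0.00138) and TMEM45B (-0.76, limma adjusted p = 0.00157) fell. CEACAM5 and CEACAM6 are close copies, and the counting could split their reads.

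**Figure D4:**
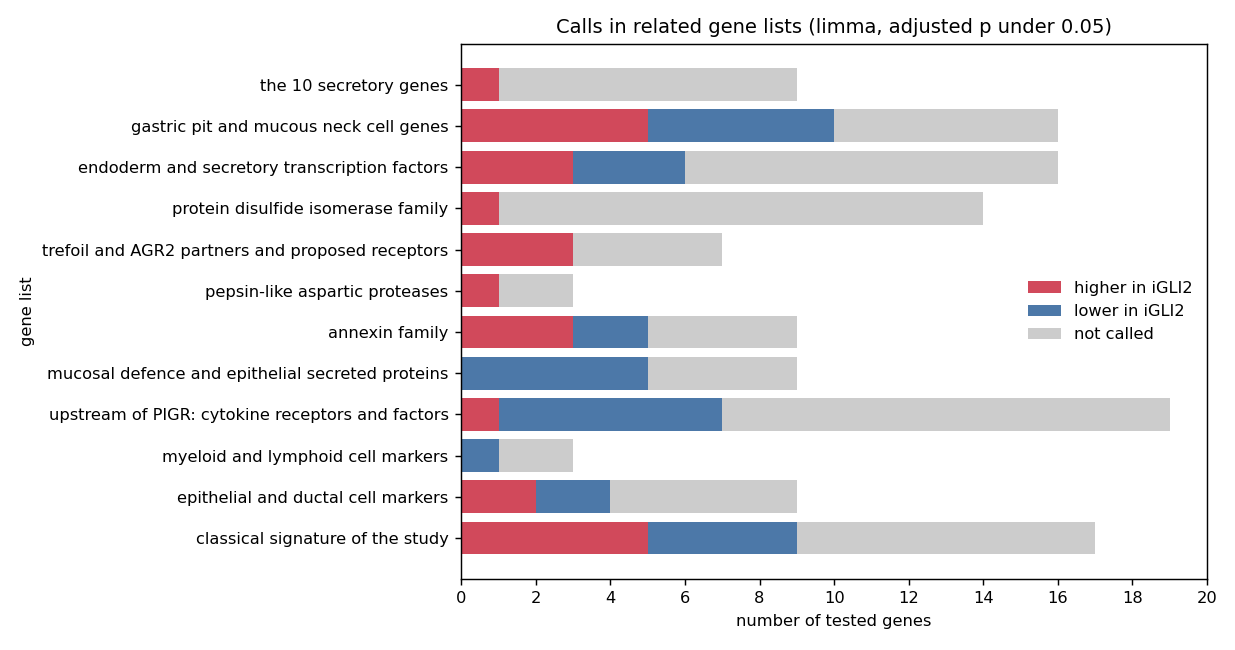
Number of tested genes in each list that were higher in iGLI2 cells (red), lower (blue) or not called (grey) in limma at an adjusted p under 0.05, for lists with at least 3 tested genes. The 10 secretory genes have 1 call among 9 tested, the gastric pit and mucous neck list has 5 in each direction among 16, and the mucosal defence list has 5 calls, all lower. Among the latter is DEFB1, which entered the test through iEV cells only. CLDN18, among the higher genes of the gastric pit and mucous neck list, entered through iGLI2 cells only.

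Neighbours of the 10 genes along the chromosome gave 14 other tested genes, of which 2 passed as higher in iGLI2 cells and 3 as lower. Beside them, 10.1% of all genes tested passed as higher and 11.8% as lower. Besides TMPRSS3, SPOCK3 before ANXA10 rose (log2 fold change 1.13, limma adjusted p = 0.0206), at a distance of 857947 bases. C1orf116, 72055 bases beyond PIGR, fell (log2 fold change -0.77, limma adjusted p = 0.0296). NOTCH2, a receptor gene near REG4, also fell (log2 fold change -0.63, limma adjusted p = 0.00111). The neighbours of AGR2, AGR3, LYZ and CTSE did not pass the test.

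Most listed markers of other cells had a mean under 1 FPKM, the exceptions being PRSS1, CD68, CD14, LYN and COL1A1. LYN lay between 15.7 and 18.6 FPKM. Of 13 markers of gastric chief, parietal and endocrine cells in the table, none had a mean of 1 FPKM, 7 are listed at 0 in every library, and their sum lay between 0.310 and 0.507 FPKM in iEV and between 0.516 and 0.768 FPKM in iGLI2 libraries. Of 19 intestinal goblet, Paneth and absorptive cell markers none had a mean of 1 FPKM, 5 are listed at 0, and their sum lay between 1.70 and 1.79 FPKM and between 0.877 and 2.04 FPKM. Of 16 myeloid and lymphoid markers, 3 entered the test (CD68, CD14 and LYN), the sum lay between 23.8 and 25.8 FPKM in iEV and between 22.2 and 24.9 FPKM in iGLI2 libraries, and CD14, a lipopolysaccharide co-receptor, fell from 4.64 ± 0.583 to 1.62 ± 0.319 FPKM (n = 3 each, SD; log2 fold change -1.11, limma adjusted p = 0.00274). PTPRC, which defines leukocytes, was at or below 0.0343 FPKM in every library and TYROBP is listed at 0. The part of such cells in the LYZ values was not tested beyond these levels. Of 12 fibroblast and endothelial markers, COL1A1 alone entered the test and was higher in iGLI2 cells (log2 fold change 0.61, limma adjusted p = 0.0110), and the sum lay between 2.80 and 3.37 FPKM and between 3.45 and 4.59 FPKM. Of 12 pancreatic acinar and endocrine markers found, PRSS1 alone entered the test, at 10.2 and 3.60 FPKM (limma adjusted p = 0.0564), and the sum lay between 5.18 and 13.4 FPKM and between 2.85 and 4.54 FPKM. Of the 9 epithelial and ductal markers tested, 2 were higher (EPCAM and CDH1) and 2 were lower (MUC1 and CLDN7), beside 10.1% and 11.8% of all genes tested. Their median log2 fold change was -0.18.

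Among the 10 genes themselves, TFF1, TFF2 and LYZ followed each other across the 6 libraries, with a Pearson correlation of log2(FPKM + 1) between 0.916 and 0.959. TFF3 followed neither TFF1 (0.031) nor TFF2 (-0.22), and ran opposite to PIGR (-0.98). These are descriptions over 6 libraries that share their group and replicate number. Out of 9400 genes with at least 5 FPKM in the higher group, SNX33 was the most like TFF1 (0.998). Most like TFF2 were MTCH2 (0.997) and MAPKAPK2 (0.996), and most like TFF3 were TMTC3 (0.999) and OSBPL3 (0.999). For AGR2 they were MED14 (0.994) and ARMC10 (0.988), and for LYZ they were CSGALNACT2 (0.996) and RNF144A (0.994). For ANXA10 they were HIBADH (0.999) and CAPS (0.999), and for PIGR they were BCL3 (0.99995), a cofactor of NF-κB, and ASS1 (0.99987). For AGR3 (APTX, 0.981, and U2AF1L4, 0.938) and CTSE (DPM1, 0.990, and ENOSF1, 0.989) the values of all libraries differed little, so likeness there follows small differences.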

How the data were processed

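RNA was measured in 6 libraries, 3 YAPC-iEV and 3 YAPC-iGLI2, with groups and replicate numbers taken from the sample titles. Per the study's methods and the submitters' processing notes, the authors used Trimmomatic for trimming, TopHat2 for alignment to hg19 and Cuffdiff 2.1.1 after that. The annotation and the scaling between libraries are not given in the sources used here. The deposited values were read as FPKM from their form and totals, since the header names no unit. The table's locus starts were counted from 0, and 1 was added.

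Of 27024 rows, 1252 off the primary chromosomes and 330 with a name shared by a higher row were left out, which left 25442 genes. The 12493 genes whose mean reached 1 FPKM were put on the log2(FPKM + 1) scale and compared by limma (version 3.58.1, under R 4.3.3) with an intensity trend, condition as the only term, two-sided, and Benjamini-Hochberg adjustment. No column of values was without a sample. Intervals are 95% from the same model. Ratios within a library were compared with an exact permutation test. The code was tested on simulated data. Python 3.11.15 with pandas 2.3.3 and matplotlib 3.10.9 served for tables and plots. Annotation was GENCODE release 44 lifted to GRCh37, and promoters were from RefSeq.

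The 10 genes and 17 further lists were chosen with earlier results of these data known. Genes named from a list are up to 2 in each direction, those with the smallest p among calls with groups that do not overlap, and others named were chosen after their values were seen. Neighbours are the nearest tested genes that do not overlap, without small RNA genes. The alternatives were upper quartile scaling, quantile normalization, small RNA genes left out and the libraries rescaled, a pseudocount of 0.1, no filter, a mean of at least 5 FPKM, no trend, a block for the replicate number or for the sample code's digit, each library removed singly, an adjusted p under 0.01, a change of at least 2-fold, and a ratio of means. Leaving out both libraries numbered 1, and joining the small RNA setting with the replicate block, were added after seeing the data. The minimum of 1.3 used to describe replicate 1 was not fixed beforehand either. Some genes that the rules select are not reported here.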

Additional observations from a re-analysis of the deposited data

How the results depend on the processing

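Of the 9 genes tested, ANXA10 passed at the same threshold in each of the 16 other fits that held it (log2 fold change 0.55 to 1.11), and AGR2, AGR3 and CTSE in none of theirs. The number of genes called among the 9, 1 in the report, was 2 with quantile normalization (22.2% of all genes, PIGR at -0.77) and 2 with small RNA genes left out and the libraries rescaled (24.8% of all genes, TFF3 at 1.28). It was 0 with a mean of at least 5 FPKM, which leaves out ANXA10 (21.2% of all genes), 0 at an adjusted p under 0.01 (8.76%) and 0 with a change of at least 2-fold (4.22%). Without both libraries numbered 1 it was 6 (43.8% of all genes). In that fit TFF1 stood at -0.62, TFF2 at -0.99, TFF3 at 1.25, LYZ at -0.81 and PIGR at -0.59.

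When single libraries were left out, the number was between 1 and 3, and the share of all genes called was between 9.79% and 30%. The log2 fold change lay between -0.98 and -0.28 for TFF1, between -1.22 and -0.65 for TFF2, between 0.93 and 1.52 for TFF3, between -0.94 and -0.32 for LYZ and between -0.81 and -0.46 for PIGR, where TFF2 and LYZ passed without iGLI2 replicate 1 and TFF3 without iEV replicate 1 (limma adjusted p = 0.0299). It lay between -0.012 and 0.078 for AGR2 and between -0.034 and 0.11 for AGR3, changing sign without passing the test. Over all alternatives the adjusted p in limma ran from 4.79e-05 to 0.175 for TFF3, from 0.00203 to 0.310 for TFF2, from 0.00106 to 0.614 for TFF1, from 0.00201 to 0.616 for LYZ and from 0.00326 to 0.227 for PIGR. On the ratio of mean FPKM, the log2 change of ANXA10 was 1.19, that of PIGR -1.24 and that of GLI2 8.67.

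All genes called numbered 2742, of which 1262 were higher and 1480 lower. They were between 1223 (without iEV replicate 2) and 3753 (without iGLI2 replicate 1) with a library left out, with 1303, 1357 and 1510 without iEV replicate 3, iGLI2 replicate 2 and iGLI2 replicate 3. They were 5467 without both libraries numbered 1, 1095 at an adjusted p under 0.01 and 527 with a change of at least 2-fold. Small RNA genes left out gave 3013, of which 1791 were higher and 1222 lower.

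The labels give both groups replicate numbers 1, 2 and 3 without saying what they share. Over 12493 genes, the deviations from the group means of same-numbered libraries correlated at 0.204, 0.092 and 0.028 for numbers 1, 2 and 3. Replicate 1 of either group correlated at between -0.193 and -0.012 with the differently numbered libraries of the other group. The libraries numbered 1 thus deviated alike. For numbers 2 and 3 the values do not show pairing, and iEV replicate 2 correlated best with iGLI2 replicate 3 (0.117). With the replicate block in the fit, 5 of the 9 genes and 3928 of all genes (31.4%) were called, among them TFF1 (-0.64, limma adjusted p = 0.00693), TFF2 (-0.88, 0.0109), TFF3 (1.21, 0.00250) and PIGR (-0.67, 0.0170). With the replicate block and small RNA genes left out, 5 of the 9 genes and 4882 of all 12172 genes then tested (40.1%) were called. In that fit TFF1 stood at -0.56, TFF2 at -0.80, TFF3 at 1.28 and PIGR at -0.64. Read numbers are unknown, which limits what can be said of REG4, ANXA10 and PIGR, all near or below 1 FPKM in a group.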
